A study of Mus musculus with 15 samples.

Results

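The comparison set gene expression in mouse small-intestinal epithelium after 1 day of RANKL against that in untreated controls. Its members were chosen by their titles and labelled agent, 3 arrays for RANKL day 1 and 3 for control, 6 of the 15 arrays in the series. All mice were wild-type BALB/c, 10 weeks of age, and their epithelium was peeled from the tissue after 10 min in 30 mM EDTA. Treated mice were injected intraperitoneally with a GST-RANKL fusion protein 2 times a day, while the labels of the controls name no agent. None of the 15 samples received GST or vehicle alone, so what the injections or GST did cannot be told apart from what RANKL did. Whether the 3 arrays of each group hold RNA of different mice is not stated, so the p-values speak only of the spread among these samples, which may be technical. The other 9 arrays, from 2, 3 and 4 days of treatment, entered the estimate of the spread, and day 2 was also compared with day 1.

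RANKL is a membrane-bound or secreted cytokine of the TNF family. It binds the receptor RANK, which recruits TRAF adaptor proteins and activates both the canonical NF-kB pathway, through RelA and p50, and the noncanonical pathway, in which the precursor encoded by Nfkb2 is processed to p52 and pairs with RelB. In the gut, RANKL made by stromal cells under the lymphoid follicles acts on the epithelium above and drives the formation of M cells, which take up particles from the lumen and pass them to immune cells. In bone the same cytokine drives osteoclast formation.

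Each gene was measured as a log2 intensity after quantile normalization, which gives every array the same distribution of values, and genes were called where limma's p, adjusted over 19938 genes, was under 0.05. Changes are given as log2 differences, day 1 minus control, with the SE of the fit and n = 3 arrays per group throughout. Of the 10 enterocyte markers all were measured, with a median control level of 12.95, and the 8 measured goblet cell markers had a median of 13.13. The 3 measured Y chromosome genes, at 4.88 to 5.50, served as the level of background, since Xist read 11.93 to 12.37 on all arrays. Markers of intraepithelial lymphocytes had a control median of 9.40, those of myeloid cells 7.66, of stroma 8.17 and of B and plasma cells 7.62, all above that level. In such bulk samples fewer cells of a type and less RNA per cell cannot be told apart. Replicate 2 of day 1 stood apart. Its deposited log2 values spanned an interquartile range of 1.95, against 2.26 to 2.55 on the other arrays, and after normalization its deviations from the group mean were the largest of the 6 arrays (root mean square 0.221, against 0.189 and 0.144 on day 1 and 0.131 to 0.155 in controls).

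After 1 day 785 genes were called, 398 higher and 387 lower, which is 3.94% of the genes tested (2.00% higher and 1.94% lower). The median change of all genes was -0.01, and 2978 genes (14.9%) passed an unadjusted p of 0.05, against which the counts below can be read. An absolute log2 change of 1 or more was seen in 112 called genes, 69 higher and 43 lower. Of the 785 genes 784 had 3 day 1 arrays on one side of all 3 control arrays, a separation that 14.6% of all genes showed. Without replicate 2 of day 1 the count was 1005, or 5.04% (645 higher, 3.24%, and 360 lower, 1.81%). Of the 112 larger changes, 64 were called in every alternative that tested them, and of the 785 calls 72 were. The 18 alternatives were planned for the processing and the choice of arrays, and the alternative that left out dim genes did not test those.

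**Figure D1:**
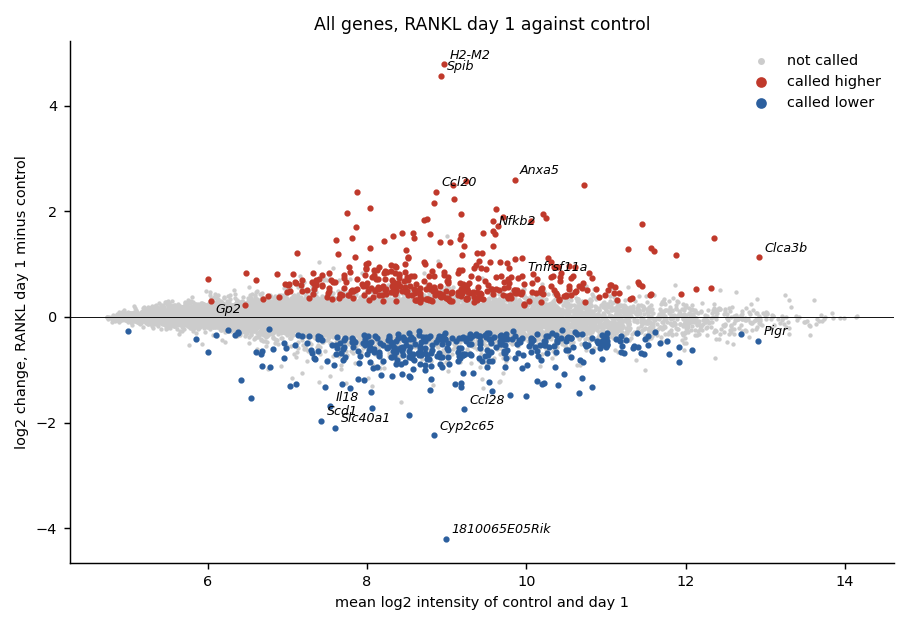
Log2 change on RANKL day 1 minus control (vertical axis) against the mean log2 intensity of the 6 arrays' group means (horizontal axis) for 19938 genes; each point is a gene, red if called higher, blue if called lower. The 2 points above 4 are H2-M2 and Spib, the point below -4 is 1810065E05Rik, and Gp2 lies on the zero line near the dim end.

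The receptor for RANKL and its decoy both rose. Tnfrsf11a, which encodes RANK, read 9.59, 9.54 and 9.53 in controls and 10.43, 10.20 and 10.36 on day 1. All 3 treated arrays lay above all controls, and the rise was 0.78 ± 0.11 (adjusted p = 0.000884 by limma). Tnfrsf11b, which encodes osteoprotegerin, the secreted decoy receptor that binds RANKL, went from 7.54, 7.25 and 7.34 to 9.0, 8.41 and 8.65, with replicate 2 the lowest of the treated arrays. Its rise of 1.31 ± 0.18 corresponds to 2.48-fold (adjusted p = 0.000742), and it was called in all 18 alternatives. Tnfsf11, the gene of RANKL itself, was not called (0.10 ± 0.19, adjusted p = 0.896). It read 8.60, 8.21 and 8.54 in controls and 8.18, 9.14 and 8.33 on day 1, so that replicate 2 alone stood above the controls, and without that array the difference was -0.20 (adjusted p = 0.428).

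Of 16 measured genes of the receptor and its proximal signalling, 4 rose and none fell, with a median change of 0.09. The other called members were the adaptor Traf2 (0.77 ± 0.08) and the ubiquitin ligase Birc3 (0.84 ± 0.14), which acts with Traf2 on the kinase of the noncanonical pathway. Traf2 read 8.28, 8.20 and 8.12 in controls and 8.91, 9.10 and 8.91 on day 1. That kinase, NIK, is encoded by Map3k14, whose change of 0.28 was not called, and neither was that of Traf6 (0.07), the adaptor most closely tied to RANK in osteoclasts, nor of Map3k7 (0.33), the kinase TAK1. The 4 calls stood without each of the 6 arrays in turn.

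Among 14 measured NF-kB subunits and inhibitors, 8 rose and none fell, and the median was 0.42. Nfkb2, the precursor of p52, changed most. Its control values of 8.89, 8.59 and 8.81 and its treated values of 10.46, 10.32 and 10.42 differed by 1.63 ± 0.08 (adjusted p = 1.96e-07), with replicate 2 close to its fellows. Relb, the partner of p52, rose by 0.43 ± 0.07 (adjusted p = 0.00355) from 8.88, 8.95 and 9.08 to 9.39, 9.43 and 9.38, a call that ended when the deposited values were used without normalization (0.0635), when arrays were centred on their medians (0.187) and when the 6 arrays were fitted on their own (0.0866). The other rises were in inhibitors or feedback regulators. Nfkbia, which encodes IkBa, the protein that holds NF-kB in the cytoplasm, rose by 0.94 ± 0.13, Tnfaip3, the ubiquitin-editing enzyme A20, by 0.93 ± 0.14, and Tnip1, which binds A20, by 0.64 ± 0.09. Bcl3, an atypical IkB that works with p50 and p52, rose by 0.74 ± 0.14 and Nfkbie, encoding IkBe, by 0.59 ± 0.08. Some of these calls also ended in other settings. With median centring Bcl3 (0.0671) and Tnip1 (0.0975) were lost. The fit of the 6 arrays with the replicate block lost Bcl3 (0.107), Tnip1 (0.1375), Nfkbie (0.111) and also Relb (0.197). Without day 1 replicate 2 the fit of these groups alone lost Bcl3 (0.0558), Tnfaip3 (0.0693) and Relb (0.104). Nfkbib was the eighth member and was singled out after its values were seen (0.41). Rela (0.19) and Rel (-0.05), subunits of the canonical pathway, were not called, and Nfkb1 was not analysed here. Leaving out single arrays gave 7 or 8 called members, all higher.

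Promoters were matched by gene symbol to RefSeq sequences of the build GRCm38.p6, and the 250 bases before each gene start were searched on both strands for the NF-kB consensus, a pattern of 10 bases. The promoters given here are those of the 3 NF-kB genes that changed most among those that hold a match (Nfkb2, Nfkbia and Tnfaip3), of Ccl20, the chemokine that rose most, and of H2-M2 and Spib, the largest rises of all. Capitals mark the matches, each sequence is read 5′ to 3′ on the gene's strand, and it ends at the base before the start. Nfkb2 had 3 promoter entries and Tnfaip3 had 2, and for each the entry with the most matches is shown. The region shown for Nfkb2 is chr19:46304487-46304736 on the plus strand and holds 2 separate capital stretches within 39 bases of the start. The region of Tnfaip3 (chr10:19015411-19015660, minus strand) also holds 2, and so does that of H2-M2 (chr17:37483555-37483804, minus strand). The regions of Nfkbia (chr12:55492648-55492897, minus strand), Ccl20 (chr1:83116516-83116765, plus strand) and Spib (chr7:44532072-44532321, minus strand) hold 1 each.
Nfkb2: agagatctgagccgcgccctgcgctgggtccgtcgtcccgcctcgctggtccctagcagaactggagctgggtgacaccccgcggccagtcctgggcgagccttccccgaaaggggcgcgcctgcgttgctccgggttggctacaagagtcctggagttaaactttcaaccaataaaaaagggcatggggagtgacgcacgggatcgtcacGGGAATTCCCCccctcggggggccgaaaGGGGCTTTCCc
Nfkbia: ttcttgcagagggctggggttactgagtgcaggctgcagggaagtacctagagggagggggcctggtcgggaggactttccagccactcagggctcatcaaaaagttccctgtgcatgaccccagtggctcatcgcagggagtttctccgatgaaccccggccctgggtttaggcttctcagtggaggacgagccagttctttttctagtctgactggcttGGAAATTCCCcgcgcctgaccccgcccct
Tnfaip3: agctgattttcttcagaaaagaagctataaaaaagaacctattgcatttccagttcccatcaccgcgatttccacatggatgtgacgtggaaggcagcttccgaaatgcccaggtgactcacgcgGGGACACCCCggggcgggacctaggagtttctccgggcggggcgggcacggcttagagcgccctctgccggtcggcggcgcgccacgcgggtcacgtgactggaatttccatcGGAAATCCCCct
Ccl20: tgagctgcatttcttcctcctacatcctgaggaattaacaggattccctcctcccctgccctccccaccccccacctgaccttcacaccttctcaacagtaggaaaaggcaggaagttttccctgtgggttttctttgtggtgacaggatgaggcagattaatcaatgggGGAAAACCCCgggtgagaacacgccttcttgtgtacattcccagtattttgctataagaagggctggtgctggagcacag
Spib: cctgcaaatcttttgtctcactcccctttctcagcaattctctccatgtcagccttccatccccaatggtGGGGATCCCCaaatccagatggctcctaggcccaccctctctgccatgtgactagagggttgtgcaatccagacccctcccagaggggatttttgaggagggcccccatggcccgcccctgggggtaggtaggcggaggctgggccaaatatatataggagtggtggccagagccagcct
H2-M2: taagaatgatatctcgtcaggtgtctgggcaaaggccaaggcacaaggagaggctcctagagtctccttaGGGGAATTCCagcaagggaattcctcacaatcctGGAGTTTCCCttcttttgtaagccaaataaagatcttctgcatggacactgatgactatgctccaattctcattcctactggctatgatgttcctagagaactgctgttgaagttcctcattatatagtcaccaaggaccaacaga
The consensus was present in 3.90% of all 32851 promoter entries and in 5.05% of the 15614 measured genes with an entry. A gene was counted if any of its entries held a match, so shares of genes are not comparable with the share of entries. Of the genes called higher, 33 of the 317 with an entry held it (10.4%), and of those called lower 18 of 296 (6.08%). Among the called NF-kB genes 5 of 7 with an entry held a match, and among the members of that list that were not called 3 of 4 did. A match describes letters in this window and is not shown to be a binding site.

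Of 23 measured genes known as NF-kB targets, 5 rose and none fell, with a median of 0.11. Ccl20, the ligand of the chemokine receptor CCR6, read 7.45, 8.03 and 7.57 in controls and 10.39, 9.53 and 10.25 on day 1. The groups were well apart, though replicate 2 was the lowest treated array, and the difference was 2.37 ± 0.20 (adjusted p = 1.44e-05) or, without replicate 2, 2.64. Icam1, an adhesion molecule for leukocytes, went from 7.72, 7.88 and 7.78 to 9.51, 9.80 and 9.59 (1.84 ± 0.09). Cxcl16, a transmembrane chemokine, was level within each group at 8.04, 8.28 and 8.30 and at 10.16, 10.17 and 10.13 (1.95 ± 0.11). Cxcl10, a ligand of CXCR3, rose by 0.95 ± 0.19 (adjusted p = 0.00992), a call lost without control replicate 3 (0.0544). The fifth was Tnfaip2, described with the M cell genes. Classical inflammatory targets were not called, among them Il6 (0.01), Il1b (0.04), Cxcl1 (0.05), Ptgs2 (-0.03) and Nos2 (0.29), nor was Tnf, whose change was 0.93. Without control replicate 3 the list had 4 members higher and 1 lower.

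Genes through which RANKL acts in osteoclasts were mostly not called. Of 22 measured, 2 rose and none fell, and the median was -0.06. Nfatc1, the transcription factor that governs osteoclast formation, read 8.10, 7.93 and 7.91 in controls and 7.96, 8.02 and 8.02 on day 1 (0.02 ± 0.08, adjusted p = 0.958). Acp5 (-0.41), Ctsk (-0.08), Mmp9 (0.05), Oscar (0.07) and Dcstamp (0.05), which mark mature osteoclasts, were not called. The members that rose are not specific to osteoclasts. Rcan1, an inhibitor of calcineurin whose transcription NFAT proteins drive, rose by 0.99 ± 0.12 from 8.71, 8.95 and 8.94 to 9.80, 9.96 and 9.81. Cd44, the hyaluronan receptor, rose by 2.04 ± 0.17 from a control range of 8.57 to 8.66 to 10.84, 10.47 and 10.61.

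The transcription factors of M cells differed in how far they had moved. Spib, the Ets factor required for M cell maturation, read 6.50, 6.81 and 6.63 in controls and 11.58, 10.98 and 11.09 on day 1, a difference of 4.57 ± 0.20 (adjusted p = 7.51e-08). Sox8, which acts with Spib on Gp2, went from 7.23, 7.11 and 7.39 to 7.88, 7.93 and 7.93, by 0.67 ± 0.10 (adjusted p = 0.00144). The 3 treated arrays of Sox8 lay closer together than the controls, and no treated array overlapped them. Esrrg, a nuclear receptor needed for Sox8 in M cells, was not called, at 7.13, 7.25 and 7.33 against 7.77, 7.58 and 7.52 (0.39 ± 0.12, adjusted p = 0.105), although all treated values lay above the controls. Atoh8, which restrains M cell number, was not called either (0.43 ± 0.17, adjusted p = 0.213). Its values of 7.55, 8.40 and 7.77 on day 1 overlapped the 7.35, 7.35 and 7.71 of the controls, with replicate 2 far above the rest.

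Of 19 measured M cell surface, uptake and secreted products, 13 rose and none fell, and the median change was 1.22. The list was drawn up with earlier results of these arrays known, so its direction is no independent evidence. The 13 calls were made without each of the 6 arrays in turn. Anxa5, which binds phosphatidylserine, rose by 2.60 ± 0.20 from 8.59, 8.71 and 8.35 to 11.39, 10.95 and 11.12. Marcksl1, a regulator of actin at the membrane, rose by 1.90 ± 0.17 from 8.92, 8.74 and 8.63 to 10.55, 10.76 and 10.67. Clu, encoding the secreted chaperone clusterin, was at 7.59, 7.62 and 7.70 and then at 9.04, 9.26 and 9.39 (1.59 ± 0.15). In none of these genes did the groups overlap, which held for 784 of the 785 called genes. Ccl9, a chemokine of the follicle-associated epithelium, rose by 1.56 ± 0.17, Tnfaip2, a protein of membrane protrusions, by 1.45 ± 0.22 and Fabp5, a fatty acid carrier, by 1.14 ± 0.20. For Tnfaip2 the treated values were 8.76, 7.86 and 8.39, so replicate 2 was again lowest, and the change was 1.69 without it.

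Gp2, the receptor by which mature M cells bind bacteria, was not called on day 1. Its values were 5.94, 5.95 and 6.22 in controls and 5.80, 6.02 and 6.25 on day 1, a difference of -0.02 ± 0.34 (adjusted p = 0.992). All 6 lay less than 1 unit above the highest Y chromosome reading of 5.50, so a small change could be missed. Msln (0.01), Aif1 (0.14), S100a4 (0.11) and Ccl6 (0.12), further M cell products, were not called, and neither was Icosl (-0.30), the ligand of the T cell costimulator ICOS.

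**Figure D2:**
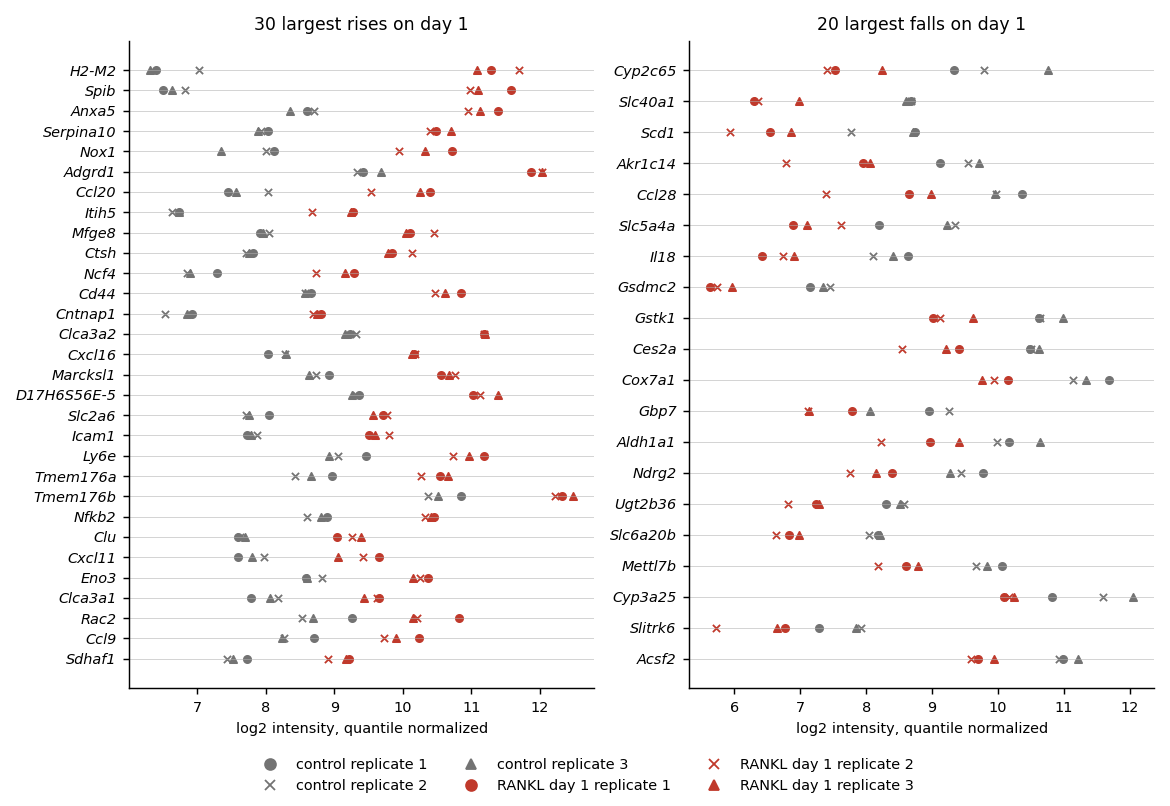
Log2 intensity (horizontal axis) of called genes with a name, 30 with the largest rises and 20 with the largest falls, 1 row of points per gene, controls in grey and RANKL day 1 in red; circles, crosses and triangles are replicates 1, 2 and 3. Only genes with no overlap between the groups were eligible, so the red and grey points are apart in every row. The crosses of day 1 replicate 2 lie furthest from the other red points in Ccl28, Akr1c14 and Slitrk6.

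The largest rise was in H2-M2, a nonclassical MHC class I gene, at 6.39, 7.02 and 6.31 in controls and 11.28, 11.70 and 11.08 on day 1. The difference of 4.78 ± 0.27 was the only call among 16 genes of antigen processing and MHC class I, whose median was -0.09. B2m (0.03), the invariant chain partner of all class I molecules, H2-M3 (-0.22), a related nonclassical gene, Tap2 (-0.09) and Nlrc5 (0.12), the activator of class I genes, were not called, nor was Tap1, the peptide transporter subunit, at -0.61. Without replicate 2 of day 1 a further member was called lower. Of 9 MHC class II genes 1 was called, Ciita, the class II transactivator, which fell by 0.90 ± 0.21 (adjusted p = 0.0258). That call was lost without control replicate 1 (0.104), control replicate 2 (0.0804) and each of the day 1 arrays (0.0503, 0.0533 and 0.0798 without replicates 1, 2 and 3), and H2-Ab1 (-0.21) and Cd74 (-0.03) were not called.

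Several subunits of NADPH oxidases, the enzymes that make superoxide, rose together. Of 14 measured, 4 were called higher and none lower, with a median of 0.18, and the same count was found without each array in turn. Nox1, the catalytic subunit of the epithelial oxidase, read 8.12, 8.0 and 7.34 in controls and 10.71, 9.94 and 10.33 on day 1 (2.51 ± 0.24). Ncf4, encoding p40phox, a regulatory subunit best known from phagocytes, went from 7.28, 6.85 and 6.88 to 9.29, 8.73 and 9.16 (2.05 ± 0.19). In both genes replicate 2 was the lowest treated array and still lay well above every control. Cyba, encoding p22phox, the membrane partner of Nox1, was bright at the start and rose by 1.31 ± 0.12 from 11.01, 10.90 and 10.83 to 12.22, 12.11 and 12.32. The GTPase gene Rac2, known mainly from blood cells, rose by 1.56 ± 0.21 from 9.26, 8.53 and 8.69 to 10.83, 10.21 and 10.14. Cybb, the catalytic subunit of phagocytes, was not called (-0.04), and neither were Rac1 (0.05), the epithelial activator Noxa1 (-0.15), Noxo1 (0.34), Ncf1 (0.25) or Duox2 (-0.01).

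Markers of the blood cells known for Ncf4 and Rac2 were not called higher, in sets too small for a lack of calls to stand out. Among all genes 2.00% were called higher and 14.9% passed an unadjusted p of 0.05. Which cells the rises of Ncf4 and Rac2 came from was not tested. Among the 8 myeloid markers none rose and 1, Csf1r, the receptor for the growth factor of macrophages, was called lower (-0.36), and the summed intensity of the 8 was 2679 to 3050 in controls and 2376 to 2707 on day 1. Of the 10 intraepithelial lymphocyte markers none was called by limma and 2 were lower at an unadjusted p under 0.05, with a median change of -0.23 and sums of 6988 to 9044 against 6103 to 7072. Of the 5 measured B and plasma cell markers none was called and none passed an unadjusted p of 0.05 (sums of 1898 to 2406 against 1259 to 2039). In the fuller list of 23 myeloid and dendritic cell genes 10 changes were positive and 13 negative, 3 were higher and 2 lower at an unadjusted p under 0.05, and Csf1r was the only call, whereas without day 1 replicate 2 another member was called higher. The call of Csf1r was lost without control replicate 1 (0.151), control replicate 3 (0.129) and day 1 replicates 1 (0.151), 2 (0.0566) and 3 (0.0539).

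Genes of cell contact and of the cytoskeleton moved in part. Of 21 adhesion molecules and integrins 5 rose and none fell (median 0.02), among them Lamb3, a chain of laminin-332 of the basement membrane. Lamb3 read 9.05, 8.31 and 8.45 and then 9.72, 9.80 and 9.83, a rise of 1.18 ± 0.19. Cd81, a tetraspanin, rose by 0.66 ± 0.09, and its control range of 11.02 to 11.11 and treated range of 11.70 to 11.78 were both narrow. Nectin2, a cell contact protein, rose by 0.41 ± 0.08, a call lost without control replicate 3 (0.0579). The integrin subunits Itgb1 (0.05) and Itga6 (-0.01) and Epcam (-0.13) were not called. Of 26 actin and cell shape genes 4 rose and 1 fell (median -0.02), with Flna, a filamin that crosslinks actin, higher by 0.85 ± 0.14 and Tagln2, an actin-binding protein, by 0.97 ± 0.08. The call of Actn1, an actin crosslinker (0.38), was lost without day 1 replicates 1 (0.116) or 3 (0.136) or control replicates 2 (0.151) or 3 (0.162), when 3 calls were left in the list. That of Vim, a filament protein of mesenchymal cells (-0.40), was lost without each of the 6 arrays, at 0.0799, 0.0569 and 0.0742 without day 1 replicates 1, 2 and 3 and 0.106, 0.0764 and 0.0716 without control replicates 1, 2 and 3.

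Phosphatidylserine-binding genes were split. Mfge8, a secreted protein that bridges apoptotic cells to integrins, rose by 2.23 ± 0.21 from 7.91, 8.04 and 7.96 to 10.11, 10.46 and 10.04. Gas6, the bridging ligand of the TAM receptors, fell by 1.05 ± 0.18 from 9.86, 9.72 and 10.00 to 8.82, 8.50 and 9.09 (adjusted p = 0.0049). With Anxa5 they were the 3 calls among 18 genes of phosphatidylserine recognition and uptake, and the receptors Axl (-0.13), Mertk (-0.30) and Tyro3 (0.10) were not called. Among 12 annexins the change of Anxa5 had little company. Anxa2 (0.01), Anxa4 (0.11) and Anxa1 (0.12) were not called, and Anxa13, an intestinal annexin, rose by 0.60 ± 0.14 (adjusted p = 0.0307) in a call lost without control replicate 1 (0.112) and without day 1 replicates 1 (0.063), 2 (0.0751) or 3 (0.0634).

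Secreted and membrane proteins outside these pathways were among the largest rises. Serpina10, the protein Z-dependent protease inhibitor of coagulation, rose by 2.58 ± 0.21 from 8.03, 7.92 and 7.88 to 10.49, 10.39 and 10.70, and was followed among 16 serpins by the intracellular protease inhibitors Serpinb1a (0.54) and Serpinb6a (0.43). None of the 16 fell. Bmp6, a signal that induces hepcidin in the liver, rose by 1.45 ± 0.09 from 7.46, 7.37 and 7.64 to 9.06, 8.87 and 8.87. Of 17 genes of chloride channels and their regulators 4 rose and none fell. They included a set of calcium-activated chloride channel regulators, Clca3a2 (1.96 ± 0.12), Clca3a1 (1.57 ± 0.13) and Clca3b (1.13 ± 0.08), and the treated values of Clca3a2 were all but equal at 11.18, 11.18 and 11.19 against 9.15 to 9.31 in controls. Clca1, the goblet cell member of that family, was not called (0.01). Related sequences among the Clca genes could share signal on the array, and this was not tested. The fourth call, Ano1, a calcium-activated chloride channel, rose by 0.69 ± 0.14, and outside that list Cftr, the cyclic AMP-dependent chloride channel, rose by 0.75 ± 0.14 and Trpm6, a magnesium channel, by 1.22 ± 0.20.

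Further members of the 30 largest rises had other roles. Adgrd1, an adhesion G protein-coupled receptor, rose by 2.5 ± 0.14 from 9.41, 9.33 and 9.67 to 11.86, 12.03 and 12.03. Itih5, a heavy chain that binds hyaluronan, rose by 2.37 ± 0.19 from 6.73, 6.63 and 6.72 to 9.27, 8.67 and 9.25, with replicate 2 the lowest treated array. Ctsh, a lysosomal aminopeptidase, went from 7.81, 7.71 and 7.75 to 9.84, 10.13 and 9.78 (2.16 ± 0.18) and was the only rise among 22 cathepsin and lysosome genes, whose median was -0.14. The only fall there, Hexa, a subunit of hexosaminidase (-0.55), was lost without day 1 replicate 1 (0.0681), control replicate 1 (0.0548) or control replicate 3 (0.0799). Cntnap1, a neuronal contact protein, rose by 1.98 ± 0.15 and Slc2a6, a lysosomal sugar carrier, by 1.85 ± 0.17. Ly6e, a lipid-anchored surface protein, rose by 1.81 ± 0.22. The adjacent genes Tmem176a and Tmem176b rose by 1.81 ± 0.20 and 1.76 ± 0.17, with Tmem176b at 10.85, 10.37 and 10.51 and then at 12.32, 12.22 and 12.48. Eno3, the muscle form of the glycolytic enzyme enolase, rose by 1.58 ± 0.21, and Sdhaf1, an assembly factor of succinate dehydrogenase, by 1.53 ± 0.10. D17H6S56E-5 rose by 1.88 ± 0.21. Among 21 genes of hypoxia and glycolysis, by contrast, none rose and 2 fell, and Ldha (0.09), Pgk1 (0.00) and Slc2a1 (0.37) were not called. The 2 falls, Vegfa, the vascular growth factor (-0.71), and Car9, a carbonic anhydrase (-0.71), were each lost in 5 of the 6 runs without 1 array. For Vegfa the adjusted p was 0.0544, 0.0998 and 0.186 without control replicates 1, 2 and 3 and 0.156 and 0.0584 without day 1 replicates 1 and 3. For Car9 it was 0.156, 0.0575 and 0.0943 without control replicates 1, 2 and 3 and 0.0799 and 0.0524 without day 1 replicates 2 and 3.

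Among 28 chemokine ligands 5 rose and 1 fell, with a median of 0.05. Cxcl11, like Cxcl10 a ligand of CXCR3, rose by 1.58 ± 0.23 from 7.60, 7.97 and 7.80 to 9.65, 9.42 and 9.05, whereas Cxcl9, the third such ligand, was not called (-0.30). The fall was in Ccl28, which draws IgA plasma cells to mucosae. Its controls read 10.37, 9.97 and 9.95 and its treated arrays 8.65, 7.40 and 8.99. Replicate 2 was the lowest by more than 1, and the change was -1.75 ± 0.31 with it (adjusted p = 0.00599) and -1.28 without it (adjusted p = 0.0032). Ccl25 (0.06), the small-intestinal ligand of CCR9, and Cx3cl1 (-0.11) were not called.

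Of 18 epithelial cytokines 2 fell and none rose. Il18, an inflammasome-processed cytokine, was at 8.64, 8.11 and 8.40 and then at 6.43, 6.74 and 6.90 (-1.69 ± 0.27, adjusted p = 0.00299). Il15, which sustains intraepithelial lymphocytes, fell by 0.70 ± 0.15, a call lost without control replicate 3 (0.0756). Il33 (-0.22), Il7 (-0.14) and Tslp (-0.09) were not called. Gsdmc2, a pore-forming gasdermin, fell by 1.53 ± 0.11 from 7.14, 7.45 and 7.35 to 5.64, 5.73 and 5.97, close to the background. With Il18 it belonged to 4 of 19 inflammasome and gasdermin genes that fell, against none that rose. The others were Nlrp6 (-0.46), a sensor of the colonic and small-intestinal epithelium, and Gsdmc4 (-0.26), whose levels of 4.86 to 5.19 lay no higher than the background. Both calls ended without control replicate 3 (0.051 for Nlrp6 and 0.0603 for Gsdmc4), when 2 members were left, and Nlrp6 was also lost without day 1 replicate 1 (0.0628) or control replicate 1 (0.0552). Casp1 (0.07), Pycard (-0.06) and Gsdmd (-0.09) were not called.

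In the TNF superfamily 4 of 32 members rose and 1 fell, a count that dropped to 3 when day 1 replicate 3, control replicate 2 or control replicate 3 was left out. That fall was in Tnfrsf14, the receptor HVEM for LIGHT, at 10.81, 10.35 and 10.23 and then at 9.72, 9.59 and 9.37 (-0.90 ± 0.18). Besides RANK and osteoprotegerin, Tnfrsf1b, the second TNF receptor, rose by 0.48 ± 0.11 and Tnfrsf10b, a death receptor for TRAIL, by 0.41 ± 0.11. Both of the last calls were lost without day 1 replicate 3 (0.0738 and 0.111), control replicate 2 (0.0712 and 0.141) or control replicate 3 (0.112 and 0.0724). Tnfrsf1b was also lost without day 1 replicate 1 (0.0886), and Tnfrsf10b without day 1 replicate 2 (0.105) or control replicate 1 (0.114). Tnfrsf1a (0.04), the first TNF receptor, and Ltbr (-0.24), another receptor of the noncanonical pathway, were not called.

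Interferon genes leaned down with few calls. Of 22 measured interferon-stimulated genes 18 had a negative change and the median was -0.26, but 1 rose (Cxcl10) and 1 fell, Stat2, the transcription factor of type I and III interferon signalling (-0.71 ± 0.16, adjusted p = 0.0222). The call of Stat2 was lost without day 1 replicates 1 (0.0614) or 3 (0.0617) or control replicates 1 (0.0762) or 2 (0.0785). At an unadjusted p under 0.05, 6 were lower and 2 higher. Irgm1, an interferon-induced GTPase, differed most and was not called (-1.61, adjusted p = 0.0531), with 9.72, 9.52 and 8.44 in controls and 8.23, 7.06 and 7.56 on day 1, groups that came close without overlapping. Ifit1 (-1.01) and Usp18 (-0.65) were not called either. Outside the list, Gbp7, an interferon-induced GTPase among the 20 largest falls (-1.41 ± 0.35, adjusted p = 0.037), was lost without day 1 replicates 2 (0.0813) or 3 (0.108) or control replicates 1 (0.115) or 2 (0.135). Of 9 receptor and kinase genes Ifnar2, a chain of the type I receptor, rose by 0.90 ± 0.13, while Ifnlr1, the type III receptor chain on epithelium, fell by 1.10 ± 0.14 from 8.65, 8.64 and 8.90 to 7.43, 7.84 and 7.60. Ifnar1, the other type I chain, was not called (0.23).

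The gene that fell furthest was 1810065E05Rik, which the rule for naming genes leaves out as an unnamed clone and which was chosen here after its values were seen. It read 11.14, 11.18 and 10.96 in controls and 7.41, 5.85 and 7.41 on day 1, a difference of -4.20 ± 0.43, or 18.4-fold lower (adjusted p = 7.1e-05). Without replicate 2, its lowest array by more than 1.5, the change was -3.68. On day 2 it stood at 9.09, 9.19 and 8.81, and the difference of 2.14 from day 1 was not called (adjusted p = 0.0768). No role is given for it here.

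Slc40a1, the iron exporter ferroportin, fell from 8.67, 8.68 and 8.60 to 6.31, 6.36 and 6.98. The change of -2.10 ± 0.37 was called in all 18 alternatives (highest adjusted p 0.0282), and the controls differed by less than 0.1. Bmp6 was the only other call among 20 genes of iron handling, and the median was -0.01. The importer Slc11a2 (-0.17), the ferric reductase Cybrd1 (-0.01), the transferrin receptor Tfrc (0.18) and the peptide hormone Hamp (0.18) were not called. Epas1, the hypoxia factor that drives iron genes in enterocytes, was lower without being called (-0.79), and Lcn2, the siderophore-binding lipocalin, was higher without being called (1.04).

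Detoxification enzymes were called lower in part, in both phases. Of 30 cytochrome P450 genes 6 fell and none rose, with a median of -0.24. Cyp2c65 read 9.34, 9.79 and 10.76 and then 7.53, 7.40 and 8.24 (-2.24 ± 0.40), so the controls spread over more than 1 unit and still stayed above the treated arrays. Cyp4f40 was tighter, at 11.61, 11.40 and 11.55 and then at 10.86, 10.78 and 10.95 (-0.65 ± 0.08). Cyp3a25 (-1.32 ± 0.26), Cyp2c55 (-1.20), Cyp3a44 (-0.70) and Cyp2s1 (-0.56) were the others. The call of Cyp3a25 was lost without control replicate 3 (0.0535), that of Cyp2c55 without control replicate 3 (0.0797) or day 1 replicate 1 (0.0628), and that of Cyp2s1 without control replicate 1 (0.0641) or day 1 replicate 3 (0.0519). Cyp3a44 was lost without control replicates 1, 2 and 3 (0.0523, 0.0704 and 0.0859) and day 1 replicates 2 and 3 (0.0623 and 0.0565). The P450 count was 3 without control replicate 3, 4 without control replicate 1 or day 1 replicate 3, and 8 without day 1 replicate 2. Cyp3a11, a major drug-metabolizing form, was not called (-1.15). Closely related P450 genes may share signal on the array, and this was not tested.

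Of 39 phase II enzymes and carboxylesterases 10 fell and none rose, with a median of -0.17. Ces2a, a carboxylesterase, fell by 1.48 ± 0.21 from 10.48, 10.50 and 10.62 to 9.41, 8.55 and 9.22. Mgst1, a microsomal glutathione transferase, fell by 1.15 ± 0.14 from 11.42, 11.17 and 11.23 to 10.24, 10.12 and 10.00. Ugt2b36 (-1.35 ± 0.20) and Ugt2b5 (-0.92 ± 0.17), which conjugate glucuronic acid, fell as well, and so did Ces1f (-0.95), a call lost without control replicate 3 (0.0843), and Aldh1a1 (-1.39), a retinal dehydrogenase. The call of Aldh1a1 was lost without day 1 replicates 1 (0.0543) or 2 (0.0558) or control replicates 1 (0.052) or 3 (0.099). Other members leaned up without a call, among them Gsta3 (0.74), Ces1g (0.72) and Ces2g (0.70). The count was 5 without control replicate 3, and 9 lower with 3 higher without day 1 replicate 2. Gstk1, a peroxisomal and mitochondrial glutathione transferase outside the list, fell by 1.49 ± 0.17.

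Steroid and lipid enzymes gave single large falls among members that were not called. Akr1c14, a hydroxysteroid dehydrogenase, was at 9.13, 9.54 and 9.71 and then at 7.95, 6.78 and 8.06 (-1.86 ± 0.35), and the change was -1.45 without replicate 2, its lowest array. With Hsd17b13, a lipid droplet enzyme (-0.77 ± 0.10), it made up the 2 falls among 15 steroid and aldo-keto enzymes, of which none rose and Hsd17b6 (1.53) and Akr1c19 (1.07) were higher without being called. Scd1, the desaturase that makes oleate, fell by 1.96 ± 0.32 from 8.73, 7.77 and 8.71 to 6.55, 5.93 and 6.85 and was the only call among 19 genes of fatty acid synthesis. Fasn (0.32), Acaca (0.10), Srebf1 (0.08) and Scd2 (0.25) were not called. Mogat2, which rebuilds triglyceride in enterocytes, fell by 0.56 ± 0.08 from 12.13, 12.22 and 12.22 to 11.51, 11.74 and 11.64 and was the only call among 23 genes of fat absorption (2 calls without day 1 replicate 1 or 2), where Apob (0.02), Mttp (-0.12) and Fabp2 (0.04) were not called. Acsf2, an acyl-CoA synthetase (-1.30 ± 0.20), and Cox7a1, a subunit of cytochrome oxidase (-1.43 ± 0.19), were among the 20 largest falls. So were Ndrg2, a stress-linked gene, at 9.77, 9.43 and 9.27 and then at 8.39, 7.75 and 8.16 (-1.39 ± 0.19), and Mettl7b, a thiol methyltransferase (-1.33 ± 0.30). The call of Mettl7b was lost without day 1 replicates 1 (0.063) or 2 (0.0686) or control replicates 1 (0.0906), 2 (0.0518) or 3 (0.0792). Of 25 genes of fatty acid oxidation and PPAR alpha 11 were lower and 1 higher at an unadjusted p under 0.05, with a median of -0.29, and 1 was called each way. Those calls, Acadvl (-0.39) and Eci1 (0.45), were both lost without day 1 replicate 1 (0.115 and 0.0592), day 1 replicate 2 (0.0543 and 0.0609), control replicate 2 (0.0828 and 0.0954) or control replicate 3 (0.125 and 0.0933), and Acadvl also without control replicate 1 (0.0505). Without day 1 replicate 3 the list had 4 calls.

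Of 29 sugar, amino acid and peptide transporters 2 rose and 2 fell, of 28 ion, bile acid and vitamin transporters 2 rose and 2 fell, and of 16 zinc and copper genes 1 rose and 2 fell. Slc6a20b, an imino acid carrier, fell by 1.33 ± 0.11 from 8.18, 8.04 and 8.20 to 6.83, 6.63 and 6.98, while Slc38a2, a neutral amino acid carrier, rose by 0.60 ± 0.11. The lysosomal carrier Slc2a6 (1.85) was the other rise of that list. Slc5a4a, of the sodium-glucose carrier family, fell furthest, by 1.71 ± 0.42 (adjusted p = 0.0376), from 8.19, 9.34 and 9.22 to 6.89, 7.61 and 7.11. Its call was lost without day 1 replicates 1 (0.125) or 3 (0.0943) or control replicates 2 (0.128) or 3 (0.147). The sugar carriers Slc5a1 (-0.10), Slc2a2 (-0.12) and Slc2a5 (-0.03) and the peptide carrier Slc15a1 (0.01) were not called. Slc5a6, the carrier of biotin and pantothenate, fell by 0.89 ± 0.15 and Slc9a2, a sodium-proton exchanger, by 0.52 ± 0.10, while Cftr and Trpm6 were the rises of their list. Slc39a5, a zinc importer, fell by 0.59 ± 0.08 from 11.70, 11.60 and 11.62 to 10.92, 11.06 and 11.18. Slc5a6, Slc9a2 and Slc39a5 had no overlap between treated and control arrays, like 784 of the 785 called genes. In a fit of the 6 arrays alone the calls of Slc5a6 (0.0746), Slc9a2 (0.0899) and Slc38a2 (0.0685) were lost. Adding the replicate block to that fit also lost Slc39a5 (0.134). Leaving day 1 replicate 2 out of it lost Slc9a2 (0.111), Slc38a2 (0.0622) and Slc39a5 (0.0516). Median centring lost Slc38a2 (0.0836). The zinc exporter Slc30a2 (0.49) and the copper importer Slc31a1 (-0.59) completed the metal calls. Slc30a2 was lost without day 1 replicate 3 (0.126) or control replicates 1 (0.134), 2 (0.0777) or 3 (0.0585), and Slc31a1 without day 1 replicates 1 (0.0719) or 2 (0.0851) or control replicates 1 (0.0679), 2 (0.0941) or 3 (0.12), so that 1 call was left without control replicate 2 or 3.

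Brush border enzymes gave no call by limma among 22 measured, with 1 higher and 3 lower at an unadjusted p under 0.05 and a median of -0.07, which is close to the shares of 3.94% called and 14.9% unadjusted among all genes. There were 2 calls without day 1 replicate 2 and 1 without control replicate 3. Sis (-0.21), Lct (0.31), Anpep (-0.02) and Dpp4 (-0.11) were among the 22 and were not called with all arrays. Of 16 measured genes of microvillus structure 1 was called. Of the 16, 15 had a negative change and 8 were lower at an unadjusted p under 0.05, a level that 14.9% of all genes passed in either direction, and the median was -0.23 against -0.01 for all genes. The call was Myo1d, a microvillus myosin (-0.53 ± 0.11, adjusted p = 0.0179), which was lost without control replicate 1 (0.0662) or control replicate 3 (0.0539), while 3 microvillus members were called without day 1 replicate 2. Vil1 (-0.15), Ezr (-0.31) and Cdhr2 (-0.29) were not called. Among 18 tight junction genes Cldn8, a sealing claudin, fell by 1.27 ± 0.18 from 7.73, 7.64 and 7.84 to 6.44, 6.44 and 6.54, and Cldn23 by 0.31 ± 0.07, a call lost without control replicate 3 (0.0673), while 3 members were called without day 1 replicate 2. Cldn3 (-0.36), Cldn7 (-0.11), Ocln (-0.12) and Tjp1 (0.04) were not called. Pigr, the receptor that carries IgA across the epithelium, fell by 0.45 ± 0.08 from 13.05, 13.17 and 13.19 to 12.62, 12.68 and 12.77, at the bright end of the array.

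Lists of the other epithelial lineages held too few genes for a count of 0 to stand out from the 3.94% called and the 14.9% that passed an unadjusted p of 0.05 among all genes. In goblet cells 0 of 20 genes were called by limma and 4 were lower at an unadjusted p under 0.05, with Muc2 (-0.07), Tff3 (-0.03) and Spdef (-0.12) among the members. In Paneth cells 0 of 9 were called and 0 passed an unadjusted p of 0.05. In enteroendocrine cells 0 of 25 were called and 3 were lower at that level, and in tuft cells 0 of 21 were called, with 2 higher and 2 lower. Medians were -0.11, -0.07, -0.07 and 0.07 in that order. Of 21 lymphocyte genes 0 were called and 20 were negative, 2 of them at an unadjusted p under 0.05, and Gzmb, the cytotoxic granzyme, differed most (-0.78). A single enteroendocrine gene was called lower without day 1 replicate 3, and a single tuft cell gene was called higher without day 1 replicate 2.

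Some genes of crypts and of dividing cells were called higher. Among 26 Wnt targets and stem cell markers there were 5 rises and no fall, and the median was 0.10. Besides Cd44 these were Msi1, an RNA-binding protein of crypts (0.95 ± 0.15), Cdk6 (0.89 ± 0.12), Aqp4, a water channel of the crypt base (0.66 ± 0.12), and Ascl2, a stem cell transcription factor (0.61 ± 0.14). Msi1 read 7.37, 7.08 and 7.46 and then 8.31, 8.19 and 8.26. The call of Ascl2 was lost without day 1 replicates 1 (0.0772) or 3 (0.092) or control replicates 2 (0.116) or 3 (0.102), and Lgr5 (-0.31), Olfm4 (0.24), Axin2 (0.03) and Myc (-0.23) were not called. Of 43 cell cycle genes 3 rose and none fell, 32 had a positive change and the median was 0.09, or 0.25 without day 1 replicate 2. Cdk6 rose from 8.82, 8.66 and 8.75 to 9.70, 9.56 and 9.64, and with Cdk4 (0.65) and the replication helicase subunit Mcm2 (0.47) made up the calls. Cdk4 and Mcm2 were lost without day 1 replicates 1 (0.11 and 0.0619) or 3 (0.0692 and 0.0529) or control replicate 3 (0.124 and 0.0667), Cdk4 also without control replicate 2 (0.0884) and Mcm2 without control replicate 1 (0.0515). Mki67 (0.21), Ccna2 (0.06) and Cdk1 (0.13) were not called. In the Notch pathway the DNA-binding effector Rbpj was the only call of 23 (0.71 ± 0.08, and 2 calls without day 1 replicate 2 or control replicate 2), from the brighter of its probe sets, while a dimmer probe set at a mean of 6.05 gave 0.09.

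Other lists held 1 to 3 calls each, several of which were lost when single arrays were left out. Pmaip1, encoding the BH3 protein Noxa, rose by 0.66 ± 0.13 and, with Birc3 and Tnfrsf10b, made up the 3 rises among 25 genes of apoptosis and survival. Tm7sf2, a sterol reductase, fell by 0.83 ± 0.17 and was the only call of 20 genes of sterol synthesis, lost without day 1 replicate 1 (0.0511) or control replicate 1 (0.0549). Nr1d1, the clock repressor REV-ERB alpha, fell by 0.68 ± 0.14, the only call of 17 clock genes, lost without day 1 replicate 1 (0.0591) or control replicate 3 (0.0597). Atf3, a stress-induced transcription factor, fell by 0.82 ± 0.18 and was the only call of 25 immediate early genes. It was lost without day 1 replicates 2 (0.0566) or 3 (0.0504) or control replicates 1 (0.0534) or 2 (0.083), although without day 1 replicate 2 other members brought the count to 2. Among 16 complement genes Clu rose and C2, a component of the classical pathway, fell by 0.71 ± 0.17, a call lost without each of the 6 arrays (0.0628 to 0.111).

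The remaining calls were small. Of 21 antimicrobial and acute-phase genes Pigr fell, as did S100g, an intestinal calcium-binding protein that is not antimicrobial (-0.34), which was lost without day 1 replicates 1 (0.0919) or 3 (0.0934) or control replicates 1 (0.108) or 2 (0.062). Of 22 retinoid genes Aldh1a1 fell, and so did Rara, a retinoic acid receptor (-0.41), lost without day 1 replicates 1 (0.128), 2 (0.0678) or 3 (0.0679) or control replicates 1 (0.144) or 3 (0.164). No retinoid gene was called without day 1 replicate 1, control replicate 1 or control replicate 3. Ptges2, a prostaglandin E synthase (-0.47), the only call of 20 prostaglandin and phospholipase genes, was lost without day 1 replicate 2 (0.0989), control replicate 1 (0.161) or control replicate 3 (0.137). Atf6, a sensor of endoplasmic reticulum stress (-0.36), the only call of 26 genes of that compartment, was lost without day 1 replicates 1 (0.0979) or 2 (0.0935) or control replicates 1 (0.111), 2 (0.0713) or 3 (0.124). Lyve1, a marker of lymphatic vessels (-0.41), the only call of 20 stromal and endothelial genes, was lost without each of the 6 arrays (0.0546 to 0.199).

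**Figure D3:**
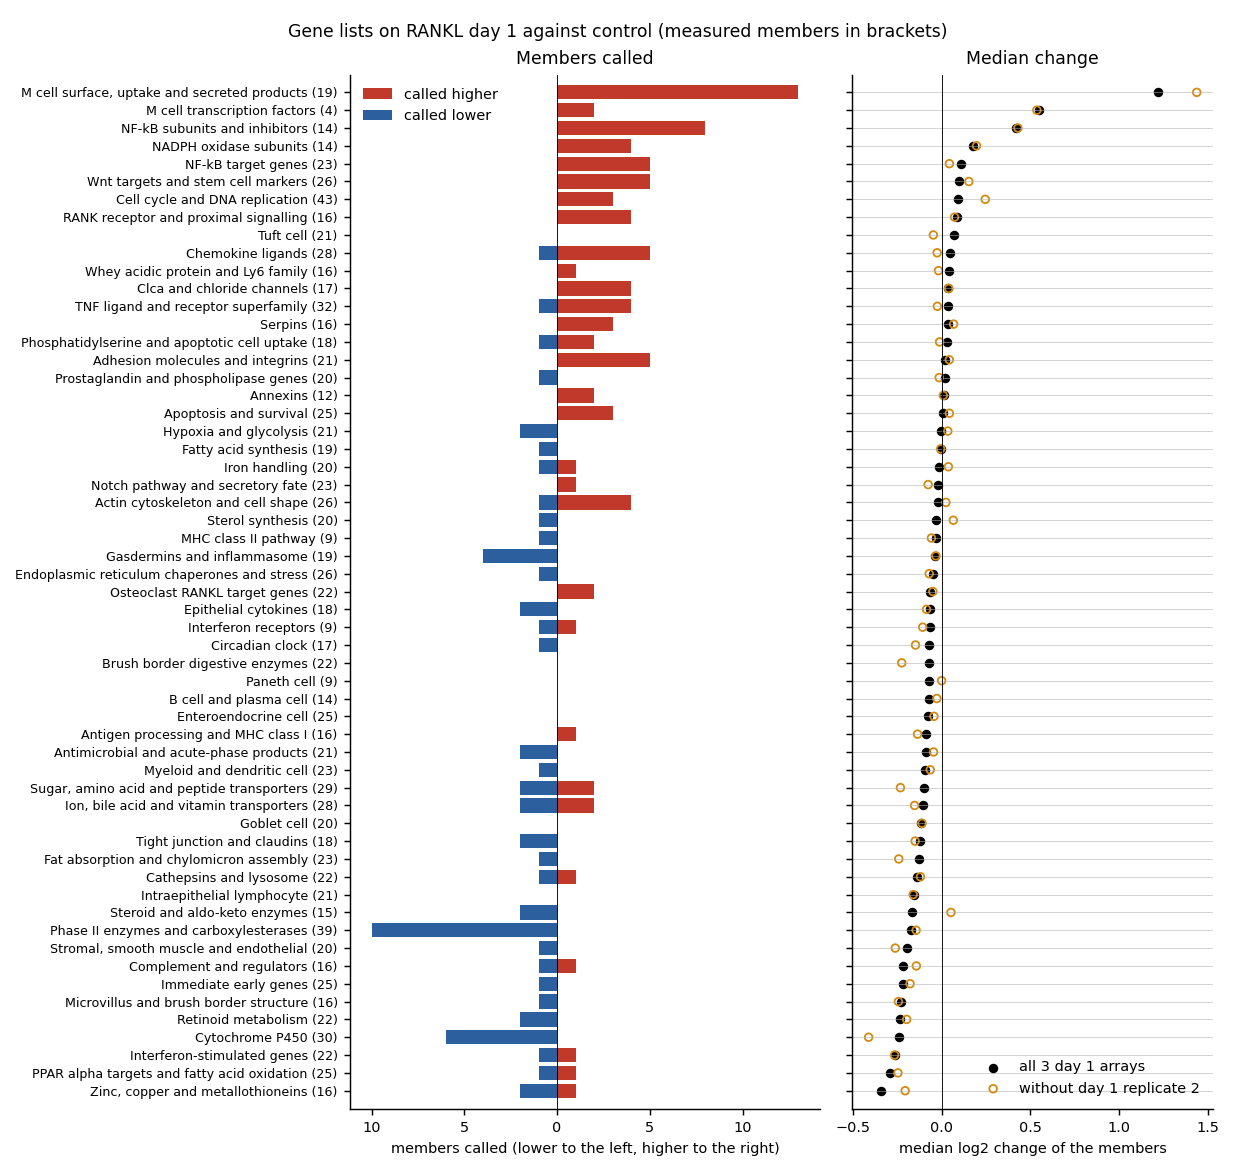
All 57 gene lists, ordered by median change; the left panel counts the members called lower (blue, to the left) and higher (red, to the right), and the right panel gives the median log2 change with all 3 day 1 arrays (filled) and without replicate 2 (open). M cell products, with 13 of 19 called higher, stand at the top, and the phase II list has the most members called lower, 10 of 39.

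Replicate 2 of day 1 bore differently on rises and falls. Measured on single arrays against the control mean, genes called higher had a median change of 0.53 on replicate 2, below the 0.63 on each of replicates 1 and 3. Genes called lower had medians of -0.57, -0.58 and -0.49 on replicates 1, 2 and 3. Of the called genes 358 rises and 266 falls were also called without replicate 2, which is 624 of the 785 and of the 1005. A further 287 rises and 94 falls were called only without it, and 40 rises and 121 falls only with it. Normalizing the 14 other arrays anew, an alternative chosen after the data were seen, gave 1002 calls. Without the array H2-M2 stood at 4.61, Spib at 4.69 and Slc40a1 at -2.01. Among lists, brush border enzymes had 0 members called with it and 2 lower without it, and P450 genes 6 and 8, with medians of -0.24 and -0.41.

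**Figure D4:**
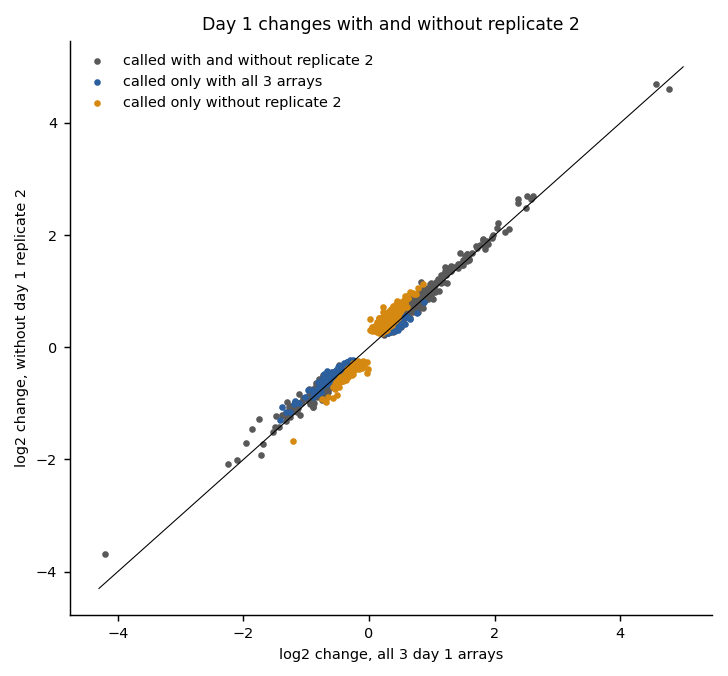
Log2 change on day 1 without replicate 2 (vertical axis) against that with all 3 arrays (horizontal axis) for genes called in either fit, with the line of equality; grey points were called in both, blue only with and orange only without the array. The points follow the line, with 287 orange and 40 blue points among the rises and 94 orange and 121 blue among the falls.

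Day 2 was also set against day 1 directly. The difference itself uses no control array, but all 15 arrays, controls included, entered the estimate of the spread. By limma 40 genes were called, 0.201% of those tested, 29 higher and 11 lower on day 2, and 1389 passed an unadjusted p of 0.05. The fit behind these calls did not pair the arrays. The replicate numbers did pair these samples by the criterion used, and with the number as a block 69 genes were called, 50 higher and 19 lower. Of the 40 genes 23 were also called on day 1 against control. Among these, 6 lay further from control on day 2 and 17 closer to it or past it. Both comparisons use the same 3 day 1 arrays, so an error in the day 1 mean moves them in opposite directions. For that reason no conclusion is drawn from the split. The count fell to 7 without day 2 replicate 1, 9 without day 1 replicate 3, 11 without day 1 replicate 2, 14 without day 2 replicate 3, 17 without day 2 replicate 2 and 25 without day 1 replicate 1.

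Gp2 made the largest step. From 5.80, 6.02 and 6.25 on day 1 it went to 9.78, 10.00 and 9.59 on day 2, a difference of 3.77 ± 0.34 (adjusted p = 0.000335). Tnfaip2 (1.24 ± 0.22), Fabp5 (1.35 ± 0.20), C4bp, a regulator of complement (1.47 ± 0.14), and Aqp4 (0.74 ± 0.12) had risen on day 1 and were higher again on day 2. Fabp5 was at 8.75, 8.12 and 8.39 on day 1 and 9.68, 9.46 and 10.19 on day 2, with no overlap. The day 1 rise of C4bp (0.65, adjusted p = 0.0202) was lost without control replicates 1 (0.0566), 2 (0.052) or 3 (0.0779) or day 1 replicates 1 (0.0836) or 3 (0.0745). The difference between the days was not called for Spib (0.10, adjusted p = 0.978), H2-M2 (-0.80, adjusted p = 0.415) or Ccl20 (0.98, adjusted p = 0.0859).

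Other rises of day 1 were smaller a day later, under the same limit of shared day 1 arrays. Nfkb2 read 10.46, 10.32 and 10.42 on day 1 and 9.87, 9.91 and 9.90 on day 2, between the first day and the controls (-0.51 ± 0.08, adjusted p = 0.0289). Mal, a protein of apical membrane transport, had risen by 1.5 ± 0.19 and was lower by 1.16 ± 0.19 on day 2, at 7.88, 8.06 and 8.61 against 7.63 to 8.03 in controls. Rcan1 (-0.79 ± 0.12), Cdk6 (-0.77 ± 0.12), Tagln2 (-0.65 ± 0.08), Reep1, a shaper of the endoplasmic reticulum (-0.62 ± 0.11), and Slc1a2, a glutamate transporter (-0.59 ± 0.08), were likewise lower on day 2 than on day 1. The day 2 arrays of Cdk6, at 9.03, 9.01 and 8.56, overlapped the controls and lay below all day 1 arrays. Apol7a, an apolipoprotein L gene, had fallen by 1.08 ± 0.17 on day 1 from 8.76, 9.14 and 9.02 to 8.10, 7.72 and 7.87 and stood at 9.02, 8.69 and 9.06 on day 2. D5Ertd579e, for which no role is given here, followed the same course (-0.62 on day 1, then 0.80 ± 0.14 from day 1 to day 2), with a day 1 call that was lost without day 1 replicates 1 (0.112) or 3 (0.0679) or control replicates 2 (0.111) or 3 (0.083).

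**Figure D5:**
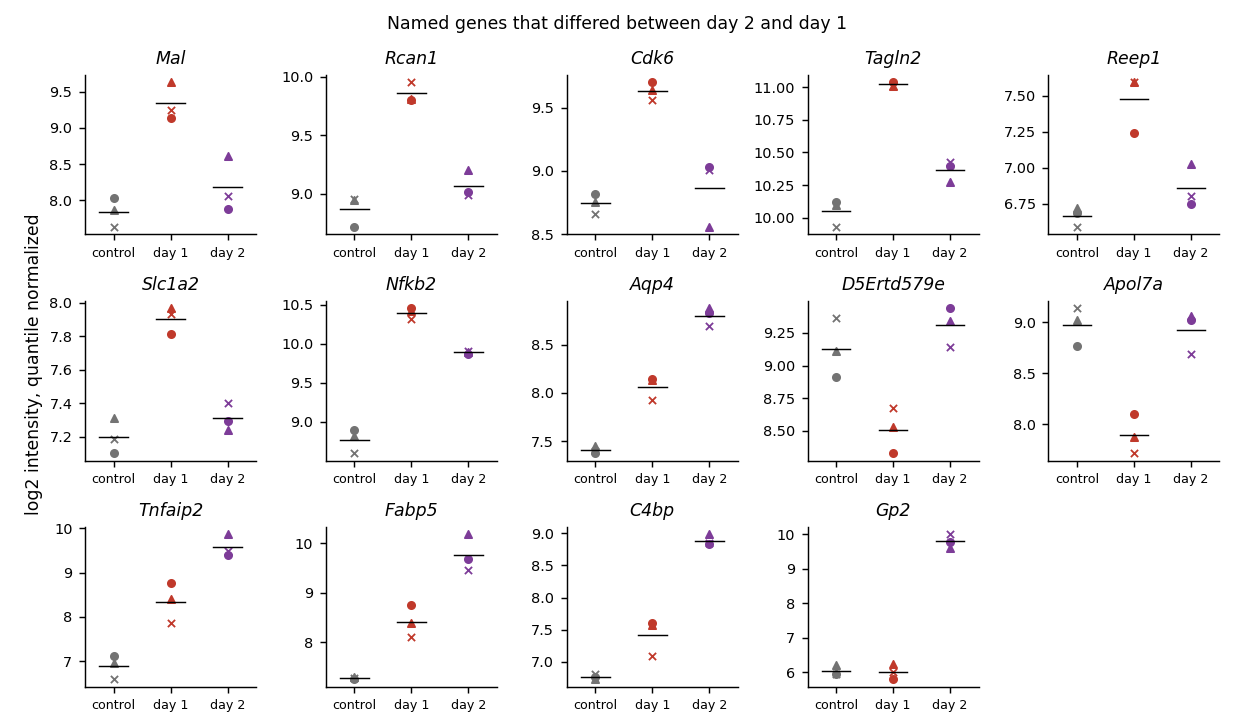
Log2 intensity (vertical axes, each with its own range that does not start at 0) in controls, on day 1 and on day 2 for the 14 named genes that differed between the days; circles, crosses and triangles are replicates 1, 2 and 3 and bars are group means. Panels run from the largest drop after day 1, in Mal, to the largest rise, in Gp2.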

How the data were processed

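RNA of the 15 epithelial samples was labelled with biotin and hybridised to Affymetrix arrays, 1 per sample, per the labels. The authors deposited a table of linear intensities for 28853 probe sets. The submitters' processing notes name the build mm9, and how the intensities were background-corrected, summarised and normalized is not given in the sources used here. Depth has no meaning for arrays, and the number of arrays limits the precision. Probe sets were named from the platform's annotation, in which 21789 had 1 gene symbol, 1621 several and 5443 were not listed, and 19856 symbols were updated through gene identifiers. Probe sets with several symbols or none were left out. Intensities were put on the log2 scale with no offset, quantile normalized over all 15 arrays, and for each of the 999 genes with several probe sets the brightest over all arrays was kept, which left 19938 genes. The 5 groups of 3 arrays were fitted together in limma 3.58.1 under R 4.3.3, with Benjamini-Hochberg adjustment over all genes, and calls were made at an adjusted p under 0.05. The fit had 10 residual degrees of freedom and 3.49 prior ones.

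The text names the 30 largest rises and 20 largest falls among called genes with a proper name and no overlap between groups, up to 6 called members of each list, the 6 largest differences each way between day 2 and day 1 among genes called in both, and 14 genes of M cells and RANKL signalling in any case. Other list members are named with values as not called. The comparison, the 57 gene lists and the members were chosen with earlier results of these data known. Alternatives changed the scaling, an offset of 16, the filter on dim genes, the choice of probe set, the prior, array weights, the groups fitted, a replicate block and the arrays kept. Same-numbered arrays of day 1 and control deviated together with correlations of 0.002, -0.203 and 0.503, so these numbers were not taken as pairs. Between day 1 and day 2 they were 0.379, 0.151 and 0.388, all over 0.1, so there the numbers met the criterion for pairs, from the data alone. The results given for day 2 against day 1 come from the fit without pairs. The replicate block entered only as an alternative.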

Additional observations from a re-analysis of the deposited data

Results flagged for a closer look

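Levels of 14 named genes differed between day 2 and day 1 of RANKL in a direct limma test of that difference (n = 3 arrays per day). The test did not pair arrays by replicate number. All 14 values are log2 differences, day 2 minus day 1, each followed by its adjusted p. Gp2 differed by 3.77 (0.000335), C4bp by 1.47 (0.000474), Fabp5 by 1.35 (0.0179), Tnfaip2 by 1.24 (0.0428), Apol7a by 1.03 (0.0300), D5Ertd579e by 0.80 (0.0454) and Aqp4 by 0.74 (0.0279). The others were lower on day 2. Mal differed by -1.16 (0.0310), Rcan1 by -0.79 (0.0180), Cdk6 by -0.77 (0.0279), Tagln2 by -0.65 (0.00305), Reep1 by -0.62 (0.0436), Slc1a2 by -0.59 (0.0087) and Nfkb2 by -0.51 (0.0289). Apart from genes named in any case, only those also called on day 1 against control were eligible for naming. Gp2, which was named in any case, was not called on day 1. Of all 40 genes that differed between the days, 23 were also called on day 1 against control.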

How the results depend on the processing

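The count of 785 genes called on day 1 lay between 445 (without control replicate 3) and 1005 (without day 1 replicate 2) when single arrays were left out. It was 480 with median centring, of which 37.3% were higher, and 1517 with array weights (61.2% higher), whose estimation stopped before it converged. With the values as deposited it was 583 (46% higher), against 50.7% of the 785. Fits of the 6 arrays alone gave 269 (59.5% higher), 81 with the replicate block as well (71.6%) and 384 without day 1 replicate 2 (65.6%). Losses in these fits are not given above for every gene. The fit with 269 calls also lost Serpinb1a (0.077), Serpinb6a (0.109), Flna (0.0646), Cftr (0.0502) and Pigr (0.0776). The replicate block in the fit of all 15 arrays gave 1052 calls, 44.8% of them higher. The day 1 and control arrays share only a number. The 40 calls between day 2 and day 1 became 7 to 25 without single arrays, 17 on the deposited scale, 19 with median centring, 711 with array weights, 69 with the replicate block, 5 with only those 2 groups fitted, 11 with the block added to that and 17 when day 1 replicate 2 was left out of it. Signs turned for 3 genes that were not called. Gp2, at -0.02, was 0.034 as deposited, 0.0687 with cyclic loess and 0.11 with array weights, and ran from -0.13 to 0.0923 without single arrays. Nfatc1, at 0.02, was -0.0021 with median centring, and ran from -0.0176 to 0.0794 without single arrays. Tnfsf11, at 0.10, was -0.11 with array weights, ran from -0.20 to 0.28 without single arrays, and was -0.20 without day 1 replicate 2 also in the fit of 6 arrays and with normalization redone, which was chosen after the data were seen. The cause was not tested. For named genes, 450 gene and setting pairs had the same direction without the call. In 2285 pairs the result was the same. These include settings of named genes that were not called on day 1, such as Gp2, which had no call to keep. The median change of all genes moved between -0.0243 and 0.0224. Signals near the Y chromosome level of 4.88 to 5.50 limit what can be seen of dim genes.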
